A study of Homo sapiens with 9 samples.

Results

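Akr1c18 and 9 other aldo-keto reductase genes were followed through orthotopic tumors of a mouse thyroid cancer line. Akr1c18 was taken because its fall from the tumors of the original cells to those of the adapted cells was the largest of any gene, and the other genes (Akr1c12, Akr1c13, Akr1c14, Akr1c19, Akr1a1, Akr1b3, Akr1b8, Akr1b10 and Akr7a5) because they are its relatives, to ask whether they fell too. All 10 symbols had a row in the table of 17369 genes. Because its fall chose it, the level of Akr1c18 in the original/B6129SF1 group against each adapted group is given as a description, without a test.

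TBP3743 is an anaplastic thyroid cancer cell line made from B6129SF1 mice with an activated Braf allele and deletion of Trp53, both restricted to the thyroid. The original/B6129SF1 group held 3 tumors from original cells in B6129SF1 mice, the adapted/B6129SF1 group 3 tumors from adapted cells in mice of that strain, and the adapted/C57BL/6 group 3 tumors from adapted cells in C57BL/6 mice. The adapted/C57BL/6 group differs from the original/B6129SF1 group in both cells and host strain, which cannot be told apart there. All hosts were female and 6 weeks old, and all 9 tumors came from 100000 cells injected into the thyroid and were taken after 14 days. The adapted cells had gone through 3 rounds of subcutaneous growth in C57BL/6 mice, with the largest tumors carried forward at each round, so both adapted groups carry 1 passaged derivative of the line and cannot show what another passage would give. Although the samples are labelled as human in the public record, cells and hosts are mouse and the reads were aligned to the mouse genome.

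Aldo-keto reductases use NADPH to reduce carbonyl groups to alcohols. The Akr1c enzymes are hydroxysteroid dehydrogenases. Akr1c18 encodes 20-alpha-hydroxysteroid dehydrogenase, which turns progesterone into a form that its receptor does not recognise and is best known from the ovary, where prostaglandin F signalling raises it and prolactin, through Stat5, holds it down. Akr1b3 encodes aldose reductase of the polyol pathway, Akr1a1 the broad aldehyde reductase, and Akr7a5 an aldehyde reductase of another subfamily.

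Levels are FPKM, fragment numbers per transcript length with a scale factor per tumor, so genes can be set beside each other. Differences are between group means of log2(FPKM + 1), which understates the change of weak genes. The test, by limma, took in 10263 of the 17369 genes, those that reached 1 FPKM in 3 or more tumors, and DEGs had an adjusted p under 0.05 over all of them and an absolute log2 fold change above 1. Of the 10 aldo-keto reductases, 8 passed this filter, and Akr1c12 and Akr1c19 did not. The labels call the replicates biological, and 3 tumors a group limit the precision. The depth relative to adapted/B6129SF1 replicate 1, read from the steps between low values, was 0.898 to 1.26 and is approximate. The share of 10 skeletal muscle markers in the summed FPKM was 6.49% for adapted/B6129SF1 replicate 3, 1.20% for adapted/C57BL/6 replicate 1 and 0.146% or less for the other tumors. Values that rest on the tumors with the larger shares are also given without them. Of the thyroid markers, Nkx2-1 was at 23.5 to 44.5 FPKM in every tumor, whereas Tshr reached at most 0.0703 and Slc5a5, the iodide transporter gene, at most 0.142.

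Akr1c18 was one of the abundant transcripts of the original/B6129SF1 tumors and was nearly lost from both adapted groups. It was at 208, 233 and 317 FPKM in the original/B6129SF1 tumors. In the adapted/B6129SF1 tumors it was at 4.38, 5.68 and 0.501 FPKM, and in the adapted/C57BL/6 tumors at 4.57, 4.09 and 3.08 FPKM. The lowest original/B6129SF1 tumor lay far above the highest adapted tumor, and adapted/B6129SF1 replicate 3, the tumor with the most muscle transcripts, was lowest of all. The group means were 252 ± 56.8, 3.52 ± 2.69 and 3.91 ± 0.764 FPKM (SD, n = 3 tumors each), a ratio of 71.7 from original/B6129SF1 to adapted/B6129SF1 and of 64.5 from original/B6129SF1 to adapted/C57BL/6. The difference of log2 means was -6.05 (standard error, SE, 0.48 by limma) in the adapted/B6129SF1 group and -5.68 (SE 0.48) in the adapted/C57BL/6 group. Without adapted/B6129SF1 replicate 3 the first of these was -5.38. These are whole tumors, in which fewer cells of a type and less RNA per cell cannot be told apart.

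**Figure D1:**
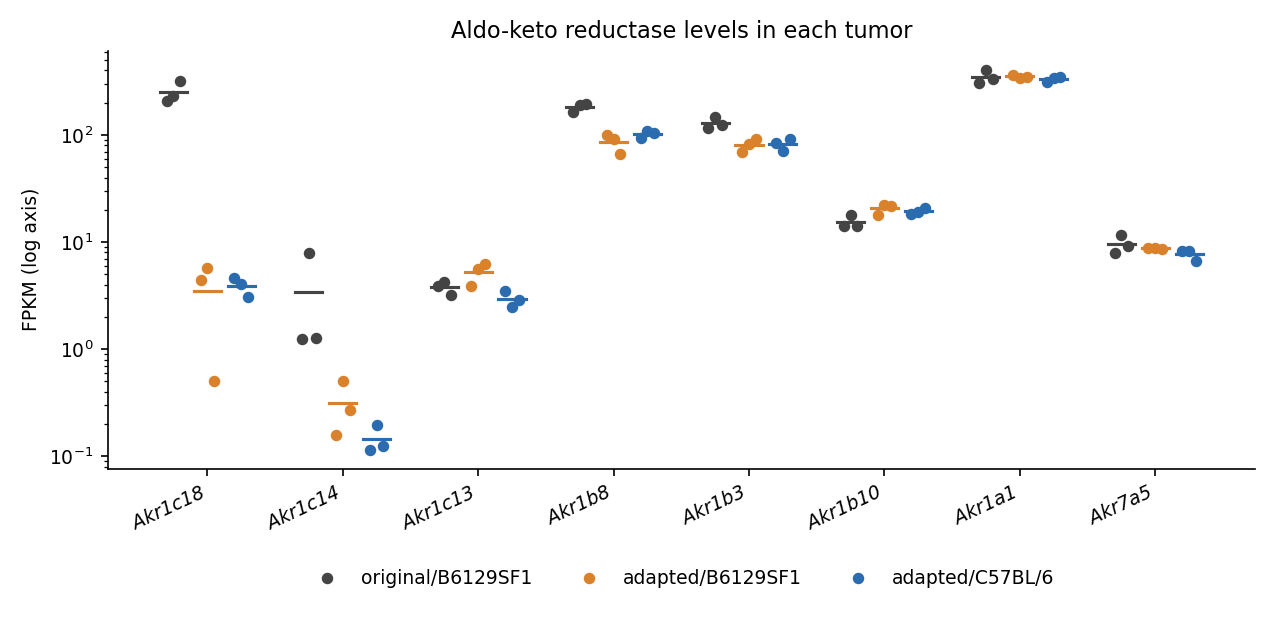
Levels of the 8 aldo-keto reductases that passed the filter, in FPKM on a log axis, with 1 point a tumor and a bar at the mean of each group. The Akr1c18 points fall from 208 to 317 FPKM in the original/B6129SF1 tumors to at most 5.68 in the adapted tumors, while those of Akr1a1 lie between 304 and 406 throughout.

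The genes with the next largest falls stood well apart from it. Averaged over both comparisons with the original/B6129SF1 group, the difference was -5.86 for Akr1c18, and it was -3.63 for Mme, a membrane metallopeptidase gene, -3.05 for the keratin gene Krt20 and -2.82 for Rgs16, a regulator of G protein signalling. Mme was uneven among the original/B6129SF1 tumors, at 10.7, 118 and 12.6 FPKM, whereas the highest and lowest Akr1c18 values there differed by a factor of 1.52.

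**Figure D2:**
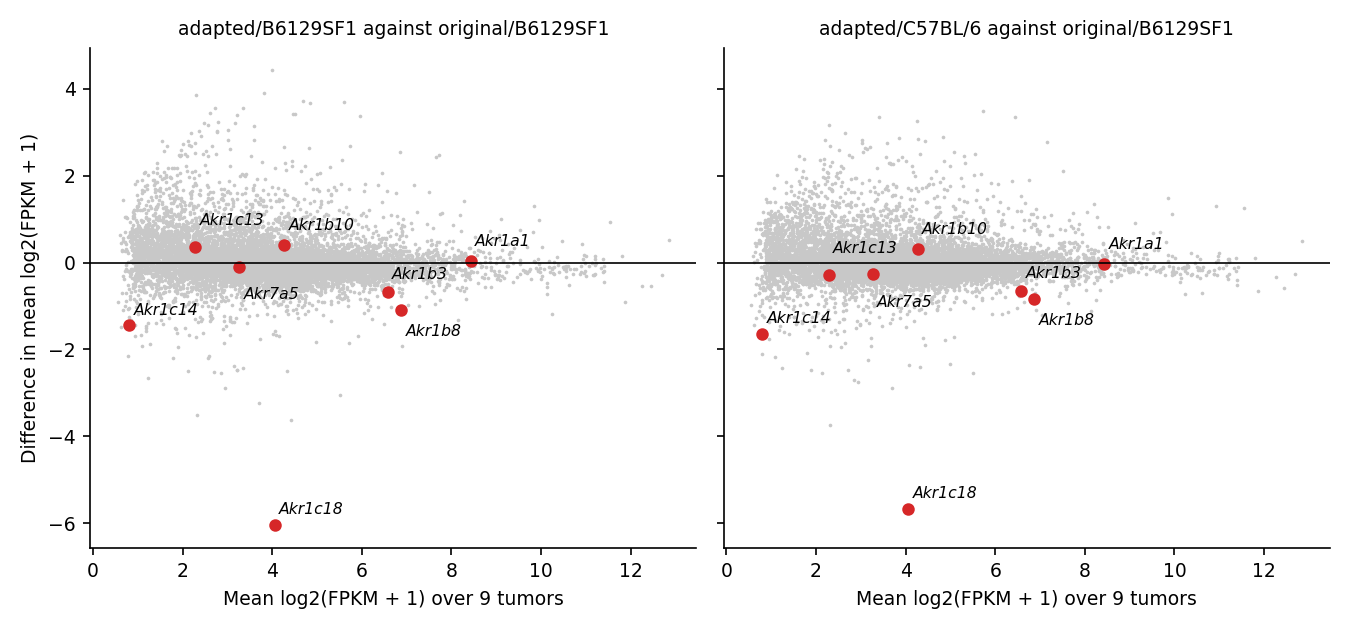
Difference between group means of log2(FPKM + 1) (vertical axis) against the mean log2(FPKM + 1) over 9 tumors (horizontal axis) for the 10263 genes tested, in grey, with the aldo-keto reductases in red, for each adapted group against original/B6129SF1. Akr1c18 lies lowest of all genes in both panels, at -6.05 and -5.68, and most of its relatives lie within the cloud.

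The host strain made no detectable difference to the level that remained. Between the adapted groups Akr1c18 had a log2 fold change of 0.37 for adapted/C57BL/6 over adapted/B6129SF1 (SE 0.48, 95% interval -0.73 to 1.47, adjusted p = 0.929 from limma), and the tumors overlapped. An exact two-sided permutation test of the 3 tumors against 3, which cannot go below 0.1, gave p = 0.9. The sign rested on adapted/B6129SF1 replicate 3: without it the difference was -0.30, and without both tumors with muscle transcripts it was -0.40. The interval covers differences of either sign, so the groups were not shown to be alike.

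Of the relatives in the Akr1c subfamily, Akr1c14 was low wherever Akr1c18 was low, but at far lower levels. Akr1c14 encodes 3-alpha-hydroxysteroid dehydrogenase, which acts on dihydrotestosterone and on progesterone metabolites. It was at 1.25, 7.82 and 1.26 FPKM in the original/B6129SF1 tumors, at 0.159, 0.505 and 0.270 FPKM in the adapted/B6129SF1 tumors and at 0.115, 0.196 and 0.126 FPKM in the adapted/C57BL/6 tumors. No adapted tumor reached an original/B6129SF1 tumor, and original/B6129SF1 replicate 2 stood apart from the other original/B6129SF1 tumors. The gap between that tumor and the next was 1.96 on the log2 scale, which ranked 5 among the 10263 genes tested, after Ogn, Mme, Omd and Adh7 (Ogn, Omd and Adh7 were named after their values were seen). Akr1c14 passed the filter only through its values in the original/B6129SF1 tumors, where it was high, so its differences of log2 means, -1.45 in the adapted/B6129SF1 group and -1.63 in the adapted/C57BL/6 group, are given without a test.

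Akr1c13, a close neighbour of Akr1c18 in sequence, did not share its fall. Akr1c13 was at 3.91, 4.24 and 3.23 FPKM in the original/B6129SF1 tumors, at 3.93, 5.57 and 6.17 FPKM in the adapted/B6129SF1 tumors and at 3.46, 2.48 and 2.89 FPKM in the adapted/C57BL/6 tumors. Both adapted groups overlapped the original/B6129SF1 group. Its log2 fold change was 0.36 (SE 0.17, adjusted p = 0.218 from limma) in the adapted/B6129SF1 group and -0.28 (SE 0.17, adjusted p = 0.356) in the adapted/C57BL/6 group. Between the adapted groups it was lower in all 3 adapted/C57BL/6 tumors than in any adapted/B6129SF1 tumor, by -0.65 on the log2 scale (SE 0.17), with an unadjusted p of 0.00476 that did not pass the adjustment (adjusted p = 0.576 from limma). Of all genes tested, 6.27% had an unadjusted p under 0.05 in this comparison, 5.42% were lower and 6.32% higher without overlap.

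Akr1c12 and Akr1c19 were close to the limit of detection. Akr1c12 was at 0.0394 to 0.210 FPKM in the original/B6129SF1 tumors, at 0.193 to 0.630 FPKM in the adapted/B6129SF1 tumors and at 0.138 to 0.257 FPKM in the adapted/C57BL/6 tumors. The groups overlapped, with p = 0.2 and 0.3 against original/B6129SF1 and 0.2 between the adapted groups in exact two-sided permutation tests. Akr1c19 was listed at 0 in all tumors except adapted/B6129SF1 replicate 1 and replicate 3, where it was at 0.0381 and 0.0389 FPKM. Akr1c12 and Akr1c13 are near-identical paralogs whose reads the counting could have split between them, so the level of each is uncertain.

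In the Akr1b subfamily the 2 abundant genes were lower in the adapted tumors and the third was not. Akr1b8 encodes a growth factor inducible reductase of aldehydes and retinal. It was at 164, 192 and 193 FPKM in the original/B6129SF1 tumors, at 101, 91.0 and 67.0 FPKM in the adapted/B6129SF1 tumors and at 93.1, 109 and 104 FPKM in the adapted/C57BL/6 tumors. No adapted tumor reached an original/B6129SF1 tumor, and adapted/B6129SF1 replicate 3 was again the lowest. Akr1b8 fell by 1.09 log2 units in the adapted/B6129SF1 group (SE 0.15, adjusted p = 0.00736 from limma), which made it a DEG, and by 0.83 in the adapted/C57BL/6 group (SE 0.15, adjusted p = 0.0170), under the fold change threshold. Without adapted/B6129SF1 replicate 3 the change in the adapted/B6129SF1 group was -0.92 (adjusted p = 0.00785), no longer a DEG by its size. In the adapted/C57BL/6 group the adjusted p rose to between 0.0533 and 0.0704 when original/B6129SF1 replicate 2 or 3 or adapted/C57BL/6 replicate 1 or 3 was left out.

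Akr1b3, the aldose reductase gene, was at 116, 148 and 125 FPKM in the original/B6129SF1 tumors, at 69.1, 81.8 and 91.7 FPKM in the adapted/B6129SF1 tumors and at 83.8, 70.4 and 92.5 FPKM in the adapted/C57BL/6 tumors. The lowest original/B6129SF1 tumor was above every adapted tumor. It fell by 0.67 in the adapted/B6129SF1 group (SE 0.15, adjusted p = 0.0294 from limma) and by 0.65 in the adapted/C57BL/6 group (SE 0.15, adjusted p = 0.0367), less than the fold change threshold. These p-values lay close to the limit, and over the alternatives tried they ranged from 0.0286 to 0.0830 and from 0.0280 to 0.102.

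Akr1b10, whose human namesake reduces retinal, went the other way in level. It was at 14.1, 18.0 and 14.2 FPKM in the original/B6129SF1 tumors, at 18.1, 22.1 and 21.7 FPKM in the adapted/B6129SF1 tumors and at 18.4, 18.9 and 21.0 FPKM in the adapted/C57BL/6 tumors. Every adapted tumor was above every original/B6129SF1 tumor, by a narrow margin. The log2 fold changes of 0.40 (SE 0.13, adjusted p = 0.0871 from limma) and 0.32 (SE 0.13, adjusted p = 0.163) did not pass the threshold. The ratio of Akr1b8 to Akr1b10 within a tumor was 11.9 ± 1.47 in the original/B6129SF1 group, 4.26 ± 1.25 in the adapted/B6129SF1 group and 5.26 ± 0.443 in the adapted/C57BL/6 group (SD, n = 3).

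Akr1a1 and Akr7a5 showed no detectable difference. Akr1a1, the most abundant member, was at 304 to 406 FPKM in the original/B6129SF1 tumors, 343 to 362 in the adapted/B6129SF1 tumors and 315 to 351 in the adapted/C57BL/6 tumors. Its log2 fold changes were 0.03 (95% interval -0.24 to 0.30, adjusted p = 0.897 from limma) and -0.04 (95% interval -0.31 to 0.24, adjusted p = 0.883). Akr7a5 was at 9.54 ± 1.89, 8.75 ± 0.125 and 7.73 ± 0.894 FPKM (SD, n = 3), with log2 fold changes of -0.10 (adjusted p = 0.689) and -0.26 (adjusted p = 0.293). Between the adapted groups Akr7a5 was lower in every adapted/C57BL/6 tumor than in any adapted/B6129SF1 tumor, by -0.17 on the log2 scale (limma adjusted p = 0.884). Of all genes tested, 5.42% were lower without overlap in that comparison.

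**Figure D3:**
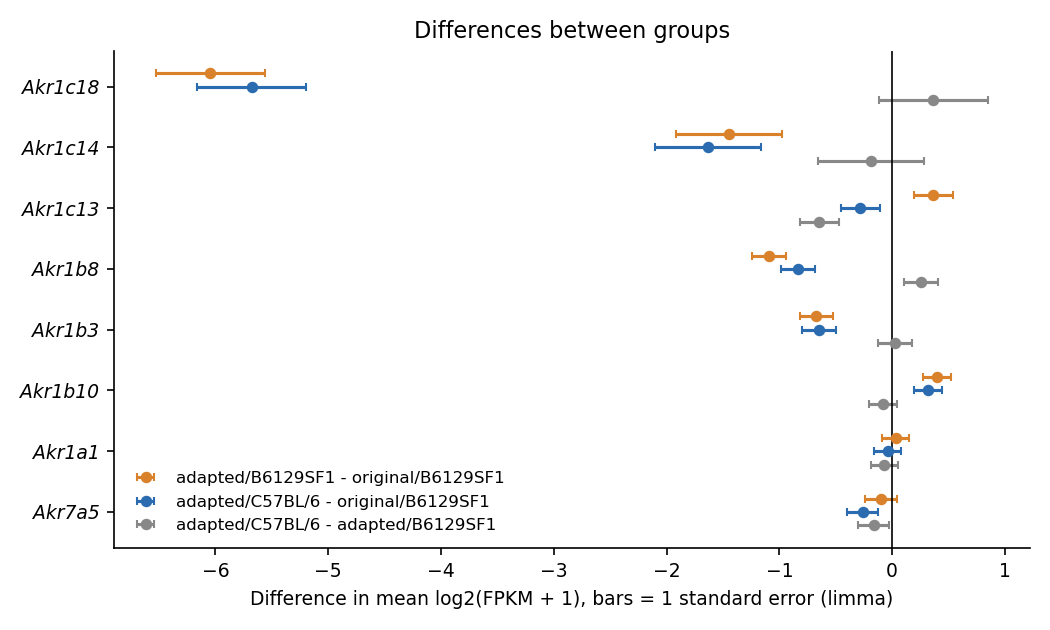
Difference between group means of log2(FPKM + 1) for 8 aldo-keto reductases (horizontal axis), with bars of 1 standard error from limma, for adapted/B6129SF1 over original/B6129SF1 (orange), adapted/C57BL/6 over original/B6129SF1 (blue) and adapted/C57BL/6 over adapted/B6129SF1 (grey). Akr1c18 lies at -6.05 and -5.68, Akr1b8 at -1.09 and -0.83, and Akr1b10 at 0.40 and 0.32.

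Akr1c18 was chosen by its fall, and Akr1c14 was admitted to the test by it, so both are left out of the counts against the original/B6129SF1 group. The other 6 relatives tested (Akr1c13, Akr1a1, Akr1b3, Akr1b8, Akr1b10 and Akr7a5) were above 1 FPKM in every tumor. Of these 1, Akr1b8, was a lower DEG in the adapted/B6129SF1 group, where 0.857% of all genes tested were lower DEGs and 3.22% were DEGs of either direction. In the adapted/C57BL/6 group 0 were DEGs by limma, where the shares of DEGs were 0.672% and 3.09%. At an unadjusted p under 0.05 there were 3 of the 6 in each of these comparisons, beside 26.5% and 24.4% of all genes tested. Akr1b8 and Akr1b3 had an adjusted p under 0.05 in both comparisons, beside 8.28% and 6.75% of all genes tested. Between the adapted groups 0 of the 8 members tested were DEGs by limma, beside 0.0292% of all genes. Of these 8, 1, Akr1c13, had an unadjusted p under 0.05, beside 6.27% of all genes. The median log2 fold change over the 6 relatives was -0.03, -0.27 and -0.07 in the 3 comparisons, beside -0.03, -0.03 and 0.01 over all genes tested. Both comparisons with the original/B6129SF1 group share its tumors. Akr1b8 and Akr1b3 were below the original/B6129SF1 tumors without overlap in both adapted groups, as were 15.9% and 17.9% of all genes tested, and Akr1b10 was above them, as were 13.6% and 14.9%.

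The order of the levels differed between the original/B6129SF1 group and both adapted groups. In the original/B6129SF1 group Akr1a1 was highest and Akr1c18 second, with overlapping tumors, followed by Akr1b8 and Akr1b3, each without overlap to the next. In the adapted/B6129SF1 group Akr1c18 was in place 8, with tumors overlapping those of Akr1c13 above it, and in the adapted/C57BL/6 group it was in place 7, overlapping Akr1c13 below it. Akr1b8 and Akr1b3 followed Akr1a1 in both adapted groups, overlapping each other in the adapted/B6129SF1 group but not in the adapted/C57BL/6 group.

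Summed over the 17 Akr genes with a row, the level was 838, 1044 and 1009 FPKM in the original/B6129SF1 tumors, 587, 581 and 565 FPKM in the adapted/B6129SF1 tumors and 543, 576 and 598 FPKM in the adapted/C57BL/6 tumors. Akr1c18 made up 26.2% ± 4.68 of that sum in the original/B6129SF1 group, 0.604% ± 0.461 in the adapted/B6129SF1 group and 0.688% ± 0.165 in the adapted/C57BL/6 group (SD, n = 3). Without it the sums were 630 to 812, 565 to 582 and 539 to 595 FPKM, which still did not overlap between the original/B6129SF1 tumors and the adapted tumors. The share of Akr1a1 went from 36.0% to 60.9% and 58.6%.

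**Figure D4:**
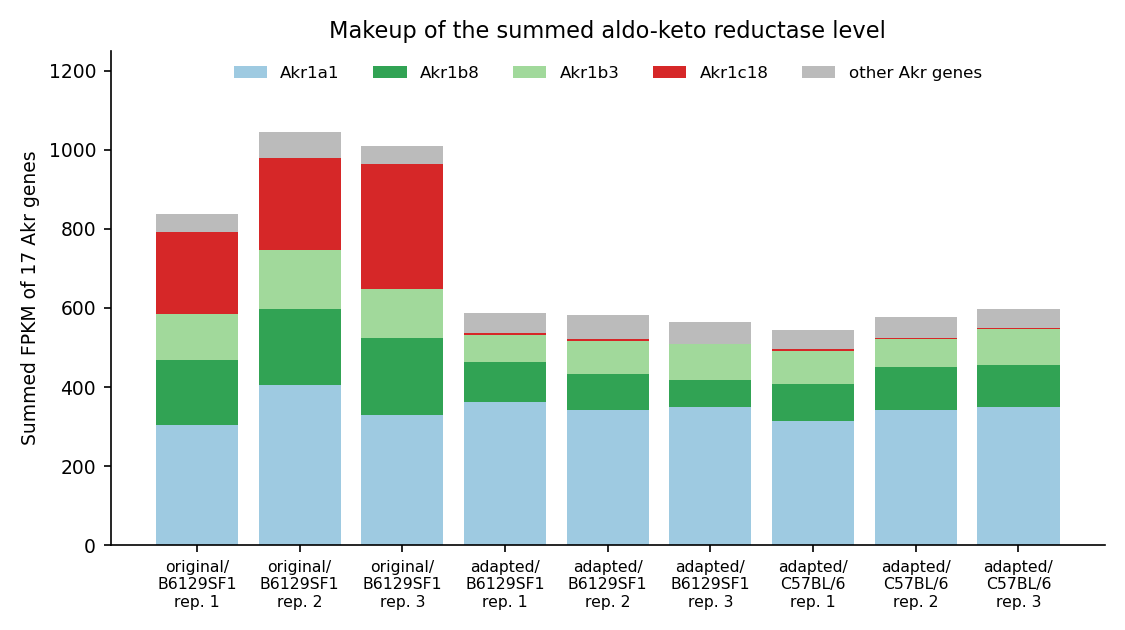
Summed FPKM of the 17 Akr genes in each of the 9 tumors, stacked by gene. The red Akr1c18 segment takes 26.2% of the bar on average in the original/B6129SF1 tumors and under 1% in the adapted tumors, and the Akr1a1 segment is similar throughout.

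The remaining aldo-keto reductases held no DEG. Of 11 further genes, 10 had a row, 2 passed the filter and 0 were DEGs in any comparison by limma. Of all genes tested, 3.22% and 3.09% were DEGs in the 2 comparisons with original/B6129SF1. Neither of the 2 had an unadjusted p under 0.05, beside 26.5% and 24.4% of all genes tested in those comparisons. So few genes cannot be told from these shares. Akr1e1, a reductase of 1,5-anhydrofructose, was at 20.2, 19.9 and 18.3 FPKM on average in the original/B6129SF1, adapted/B6129SF1 and adapted/C57BL/6 groups, and its log2 fold changes were -0.01 and -0.13 (limma adjusted p = 0.982 and 0.666). Kcnab2, whose product has the aldo-keto reductase fold but serves as a potassium channel subunit, was at 8.32, 10.2 and 9.59 FPKM, and its log2 fold changes were 0.27 and 0.17 (limma adjusted p = 0.270 and 0.528). Kcnab1 and Kcnab3 were below 1 FPKM in every tumor. Akr1b7 and Akr1d1, the steroid 5-beta-reductase gene, were at most at 0.103 and 0.0282 FPKM, and Akr1c6, Akr1c20, Akr1c21 and Akr1cl were listed at 0 in all tumors.

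The 5 genes that followed Akr1c18 most closely over the 9 tumors in log2(FPKM + 1) were Dner with a Pearson r of 0.988, Gna11 with 0.983, Arnt2 with 0.981, Cdc42bpg with 0.981 and Zfp809 with 0.979. Since Akr1c18 takes only high values in the original/B6129SF1 tumors and low values in the adapted tumors, such an r mainly reflects that split, and it is given without a test. Dner, a Notch ligand gene, was at 2.70, 0.359 and 0.441 FPKM on average in the original/B6129SF1, adapted/B6129SF1 and adapted/C57BL/6 groups. Among the relatives r was 0.964 for Akr1b8, 0.829 for Akr1b3, 0.773 for Akr1c14, 0.476 for Akr7a5, -0.01 for Akr1a1, -0.16 for Akr1c13 and -0.82 for Akr1b10.

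Some genes around the prostaglandin pathway, which meets Akr1c18 in the ovary, were among those that changed. Of 23 listed genes 21 had a row and 16 were tested, of which 1 was a higher and 2 were lower DEGs in the adapted/B6129SF1 group, and 2 were higher and 2 lower in the adapted/C57BL/6 group. The higher DEGs include Ptgis in both groups, and in the adapted/B6129SF1 group it was the only one. Ptgis passed the filter only through its values in the adapted tumors, where it was high, so its part in these counts is no support. Of all genes tested, 2.36% and 2.42% were higher DEGs and 0.857% and 0.672% lower DEGs in these comparisons. At an unadjusted p under 0.05 there were 8 and 4 of the 16 in these comparisons, beside 26.5% and 24.4% of all genes tested. The median log2 fold change of the list was 0.12 and 0.03. Between the adapted groups 0 of its genes were DEGs by limma, beside 0.0292% of all genes tested. There 4 of the 16 had an unadjusted p under 0.05, beside 6.27% of all genes tested. Ptgfr, the prostaglandin F receptor gene, was at 12.0, 15.2 and 16.5 FPKM in the original/B6129SF1 tumors, at 1.49, 3.29 and 2.51 FPKM in the adapted/B6129SF1 tumors and at 3.50, 3.33 and 2.35 FPKM in the adapted/C57BL/6 tumors. It fell by 2.21 (SE 0.22, adjusted p = 0.00239 from limma) and by 1.94 (SE 0.22, adjusted p = 0.00287) without overlap, and it kept an adjusted p under 0.05 in all 16 alternatives in both.

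Ptgs2, the inducible cyclooxygenase gene, was at 32.1, 10.9 and 43.3 FPKM in the original/B6129SF1 tumors, at 6.89, 3.17 and 2.70 FPKM in the adapted/B6129SF1 tumors and at 3.39, 5.88 and 4.43 FPKM in the adapted/C57BL/6 tumors. It fell by 2.39 (SE 0.48, adjusted p = 0.0215 from limma) and by 2.24 (SE 0.48, adjusted p = 0.0296), and the call was lost in 6 and 8 of 16 alternatives, among them those without the tumors with muscle transcripts (adjusted p = 0.0668 and 0.0732). Ptgis, the prostacyclin synthase gene, rose from 0.138, 0.183 and 0.314 FPKM in the original/B6129SF1 tumors to 3.65, 1.67 and 7.51 FPKM in the adapted/B6129SF1 tumors and 3.87, 6.82 and 5.70 FPKM in the adapted/C57BL/6 tumors. Because only its values in the adapted tumors took Ptgis past the filter, its differences of log2 means, 1.97 (SE 0.37) and 2.39 (SE 0.37), are given without a test. Slco2a1, a prostaglandin uptake transporter gene, was at 5.22 ± 0.287, 9.86 ± 2.88 and 12.6 ± 0.241 FPKM (SD, n = 3), with log2 fold changes of 0.77 (adjusted p = 0.0309, under the fold change threshold) and 1.13 (adjusted p = 0.00748). The most abundant genes of the list, Ptges3 and Ptgs1, did not pass the test, with log2 fold changes of -0.21 and -0.13 for Ptges3 and -0.23 and -0.01 for Ptgs1.

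**Figure D5:**
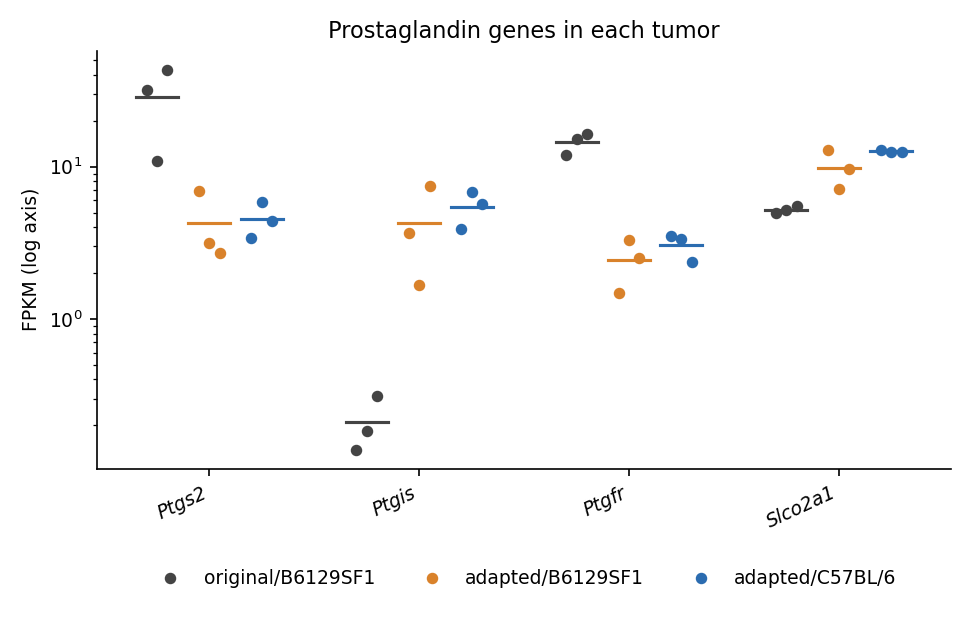
Levels of genes of the prostaglandin pathway (Ptgs2, Ptgis, Ptgfr and Slco2a1), in FPKM on a log axis, with 1 point a tumor and a bar at the mean of each group. Ptgfr falls from 12.0 to 16.5 FPKM in the original/B6129SF1 tumors to at most 3.50 in the adapted tumors, and Ptgis rises from at most 0.314 to at least 1.67.

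The other lists held 0 DEGs in any comparison by limma. They were steroid synthesis and metabolism (11 of 29 genes tested), other carbonyl and aldehyde enzymes (22 of 25), the NRF2 pathway, which is known to drive several aldo-keto reductases (21 of 25), and the prolactin receptor and Stat5 (6 of 8). Of all genes tested, 3.22%, 3.09% and 0.0292% were DEGs in the 3 comparisons. At those shares lists of this size can hold 0 DEGs without differing from the other genes. The 2 most abundant genes of each list gave small differences on the log2 scale, none with an adjusted p under 0.05. They were -0.36 and -0.14 for Hsd17b12 and -0.01 and 0.04 for Hsd17b4 among the steroid genes, and -0.16 and -0.09 for Aldh2 and -0.05 and -0.04 for Adh5 among the carbonyl and aldehyde enzymes. The ferritin genes Fth1 (0.16 and 0.10) and Ftl1 (0.00 and 0.03) led the NRF2 list, and Socs3 (-0.23 and -0.21) and Jak2 (-0.07 and 0.14) the prolactin list. At an unadjusted p under 0.05 there were 4, 4, 3 and 2 genes of these lists in the adapted/B6129SF1 group and 1, 5, 3 and 0 in the adapted/C57BL/6 group, and 2, 1, 0 and 0 between the adapted groups. The shares of all genes tested at that level were 26.5%, 24.4% and 6.27% in these comparisons. Gsr, the glutathione reductase gene, and Aldh7a1 were named after their values were seen: Gsr had log2 fold changes of -0.68 (limma adjusted p = 0.0129) and -0.46 (adjusted p = 0.0499), and Aldh7a1 of 0.96 (adjusted p = 0.0301) and 0.98 (adjusted p = 0.0321), all under the fold change threshold.

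Markers of other tissues moved alongside in part. Adrenal and ovarian steroid-producing cells, where Akr1c18 is well known, were hardly represented: their 6 markers summed to 1.65 to 2.05 FPKM in the original/B6129SF1 tumors and 1.04 to 1.72 FPKM in the adapted tumors, and Hsd3b1 was at 0 in all. Leukocyte markers summed to 475 to 532 FPKM in the original/B6129SF1 tumors, 749 to 943 in the adapted/B6129SF1 tumors and 525 to 982 in the adapted/C57BL/6 tumors. Of these 8 markers, all tested, 1 was a higher DEG in the adapted/B6129SF1 group and 0 in the adapted/C57BL/6 group. The shares of all genes tested were 2.36% and 2.42%. At an unadjusted p under 0.05 by limma there were 7 and 5 of the 8, beside 26.5% and 24.4% of all genes tested. The median log2 fold change of the 8 markers was 0.77 and 0.70, beside -0.03 and -0.03 over all genes tested. The higher DEG was Cd52, the most abundant of the markers (log2 fold change 1.12, limma adjusted p = 0.0491). It just missed the threshold in the adapted/C57BL/6 group (1.14, adjusted p = 0.0512). The fibroblast (6 tested), endothelial (5), adipocyte (3), skeletal muscle (10) and thyroid (2) markers held 0 DEGs in any comparison. In that order their median log2 fold changes were 0.13, 0.31, 1.56, 3.62 and -1.22 in the adapted/B6129SF1 group. In the adapted/C57BL/6 group they were 0.08, 0.21, 0.38, 2.03 and 0.11. The lack of DEGs therefore does not show that these markers were unchanged. Of the 7 epithelial markers 6 were tested and 1 was a lower DEG in each adapted group, beside 0.857% and 0.672% of all genes. It was the keratin gene Krt8 (log2 fold changes -1.32 and -1.12, limma adjusted p = 0.0189 and 0.0346). The median over the tested epithelial markers was -0.39 in the adapted/B6129SF1 group and -0.07 in the adapted/C57BL/6 group, where Krt18 was at -0.93 and Cdh1 at 0.36, neither a DEG. The part of these shifts in the levels of Akr1c18, Akr1b8 and Akr1b3 was not tested.

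Levels relative to Nkx2-1, a thyroid transcription factor gene, and to Krt8 are given for these 3 reductases, both chosen after their values were seen. Per unit of Nkx2-1, Akr1c18 was at 5.58 to 11.0 in the original/B6129SF1 tumors and at 0.0213 to 0.157 in the adapted tumors, and Akr1b8 at 4.60 to 6.68 and 2.26 to 3.17. Akr1b3 was at 3.54 to 4.31 in the original/B6129SF1 tumors and 1.55 to 3.91 in the adapted tumors, where adapted/B6129SF1 replicate 3 overlapped. Per unit of Krt8, Akr1c18 was at 0.377 to 0.641 in the original/B6129SF1 tumors and at 0.00328 to 0.0243 in the adapted tumors. Akr1b8 per unit of Krt8 was at 0.296 to 0.529 in the original/B6129SF1 tumors and 0.321 to 0.559 in the adapted tumors, and Akr1b3 at 0.203 to 0.407 and 0.289 to 0.600. Akr1c18 was chosen by a fall far larger than the range of either gene, so its ratios had to be lower in the adapted tumors. The values of Akr1b8 and Akr1b3 per unit of Krt8 overlapped. Krt8 was itself a lower DEG in both adapted groups, so dividing by it offsets falls of that size. No conclusion is drawn from these ratios, and which cells changed was not tested.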

How the data were processed

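RNA from 9 tumors was sequenced by the authors as paired-end reads, checked with FastQC, aligned with HISAT2 to mm10, the mouse build, and tested with Cuffdiff. The deposited values are FPKM made by the authors with Cuffnorm for all tumors. The annotation and the Cuffnorm scaling are not given in the sources used here, and the absolute depth is unknown. FPKM hides how many fragments lie behind a value, so weak genes are imprecise. Groups and replicate numbers came from the sample labels. In R 4.3.3, limma 3.58.1 (lmFit, then eBayes with a trend) was fitted to log2(FPKM + 1) of the 10263 genes that reached 1 FPKM in 3 or more tumors, in one model of the 3 groups, with Benjamini-Hochberg adjustment over all genes tested. Genes below the filter were compared by exact two-sided permutation tests. No 2 tumors shared the value of more than 0.0487% of genes.

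The members and lists were chosen with earlier results of these data known. Named were all members and other aldo-keto reductases, of each other list the DEGs (up to 5) and the 2 most abundant genes, the 5 genes most like Akr1c18 and the 3 next largest falls, and any further gene is marked where it stands. The alternatives were another pseudocount, filter, scaling and trend, only the groups compared, a replicate block, another threshold, leaving out each tumor in turn, and leaving out both tumors with muscle transcripts. The list results and single prostaglandin genes under these alternatives were added after seeing the data. Coordinates and sequences were not used here, for want of a mouse reference.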

Additional observations from a re-analysis of the deposited data

How the results depend on the processing

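Akr1b8 and Akr1b3 were lower than in the original/B6129SF1 group in every alternative, and Akr1b10 higher. Akr1c18 was chosen by its fall, so its own calls against original/B6129SF1 are no support and are left out here. Of the other members, Akr1b8 was a DEG in the adapted/B6129SF1 group. It was not one without both tumors with muscle transcripts or without adapted/B6129SF1 replicate 3. In the adapted/C57BL/6 group no other member was a DEG. With a pseudocount of 0.1 Akr1c14 was one there, which the filter admitted by its high values in the original/B6129SF1 tumors. By adjusted p alone Akr1b8 and Akr1b3 passed in both groups. All DEGs numbered 330 and 317, and 850 and 693 by adjusted p alone. With a tumor left out they ranged from 141 to 358 and from 156 to 347, lowest without original/B6129SF1 replicate 3 (141 and, in the adapted/C57BL/6 group, 177) and without adapted/C57BL/6 replicate 3 (156). Between the adapted groups the 3 DEGs became 1 without a filter, 0 with only the groups compared and 0 to 6 with a tumor left out, and the Akr1c18 difference was -0.40 without both tumors with muscle transcripts and -0.30 to 0.78 with a tumor left out. Relatives with an adjusted p under 0.05 numbered 2 in each adapted group. In the adapted/B6129SF1 group they were 1 with only the groups compared and 1 to 2 with a tumor left out, and in the adapted/C57BL/6 group 1 without a filter, 1 without both tumors with muscle transcripts and 0 to 2 with a tumor left out. Without original/B6129SF1 replicate 2 the relatives of the adapted/B6129SF1 group were Akr1b8, lower, and Akr1b10, higher (limma adjusted p = 0.0474). Akr1b3 did not pass there (adjusted p = 0.0702). The 3 prostaglandin DEGs of the adapted/B6129SF1 group became 1 to 3 with a tumor left out (1 without original/B6129SF1 replicate 1 or 3). These counts include Ptgis, which the filter admitted by its high values in the adapted tumors. Small differences changed sign: with a tumor left out Akr1a1 ranged from -0.059 to 0.15 in the adapted/B6129SF1 group and from -0.13 to 0.081 in the adapted/C57BL/6 group (0.0068 without both tumors with muscle transcripts), Akr7a5 from -0.22 to 0.038 in the adapted/B6129SF1 group, and between the adapted groups Akr1b3 from -0.083 to 0.13 and Ptgs2 from -0.067 to 0.48. The cause was not tested. Akr1c14 failed the filter when an original/B6129SF1 tumor was left out, so those alternatives gave it no value.

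Same-numbered tumors are different animals, and their deviations from the group means had correlations of -0.33 to 0.03 (adapted/B6129SF1 with original/B6129SF1), 0.07 to 0.30 (adapted/C57BL/6 with original/B6129SF1) and -0.39 to 0.61 (adapted groups), so the numbers do not pair the tumors. With a replicate block the DEGs numbered 242, 245 and 0 in the 3 comparisons. The members called were 2, 1 and 0, which include Akr1c18, chosen by its fall, in both comparisons with original/B6129SF1. In each adapted group 1 relative had an adjusted p under 0.05 (Akr1b8), against 2 without the block. The number of tumors limits all of these results.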
